A study of Rattus norvegicus with 18 samples.

Results

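The genes described here encode the pores and subunits of voltage-gated and other cation channels, measured by RNA-seq of brain tissue in rats. They were chosen by symbol, with earlier results of these data known, as every protein-coding gene whose symbol begins with Kcn, Cacna1, Cacnb, Cacng or Hcn, or is an Scn alpha subunit, without Kcnj13, Kcne2 and Kcnj8. The rule found 125 of the 34873 genes listed, of which 89 belong to potassium, 22 to calcium, 10 to sodium and 4 to hyperpolarization-activated cyclic nucleotide-gated (HCN) channels. After removal of genes with low counts, 109 of the 125 could be tested, among 16581 genes tested in all.

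The study asks about the cytokine CLCF1, macrophages and nerve damage after carbon monoxide (CO) poisoning, and it has 3 groups of 6 brain libraries. The CLCF1 group is labelled as a knock-down of the Clcf1 gene and had inhaled CO, the CO group consisted of wild-type rats after CO inhalation, and the NC group of wild-type rats with no treatment given. The series' design text describes a 40 min exposure at 1000 ppm followed by 20 min at 3000 ppm, with carboxyhemoglobin above 60%. It describes the knock-down as lentiviral shRNA in macrophages grown from bone marrow, which were then injected into rats whose own macrophages had been depleted with liposomes, but it does not say which of these steps the CO and NC rats had, and age and brain region are not given. CLCF1 and CO rats may therefore differ in more than the knock-down.

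Ion channels set how readily a neuron fires. Voltage-gated sodium channels carry the rising phase of the action potential, calcium channels couple firing to transmitter release and gene expression, and potassium channels, the most diverse family, bring the membrane back to rest. Two-pore and inward-rectifier potassium channels hold the resting potential, HCN channels carry a depolarizing current near rest, and in glia the inward rectifiers clear potassium from around neurons.

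The libraries held 15.1 to 20.3 M counts (M: 1000000), of which 0.314% to 0.450% fell on the 125 genes. Clcf1 itself lay at 0 to 0.161 CPM (counts scaled to a library of 1000000) in CLCF1 libraries, at 5.04 to 7.5 CPM in CO libraries and at 0.0561 to 0.324 CPM in NC libraries. Libraries 3 to 6 of each group stand apart from libraries 1 and 2. A gene was at 0 in both libraries 1 and 2 of a group in 42660 cases, and libraries 3 to 6 of the same group had a count for it in 0 of them, whereas libraries 1 or 2 of the other groups had one in 2.90% to 8.92%. Results are therefore also given for libraries 1 and 2 alone. Whether each library is a separate animal is not labelled, so the p-values measure only the spread between libraries. Libraries 3 to 6 may not be samples independent of libraries 1 and 2, and if they are not, the SDs, SEs and p-values over 6 libraries a group are too small. Defining markers of brain were present, with oligodendrocyte markers, for example, summing to 7800 to 16500 CPM in CLCF1, 10200 to 20500 CPM in CO and 9430 to 20900 CPM in NC. The endothelial marker Cldn5 was at 0 in every library, but the endothelial markers Flt1, Slco1a4 and Vwf averaged 37.7, 79.8 and 57.9 CPM in NC. In a bulk sample, fewer cells of a type and less RNA per cell cannot be told apart.

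Potassium channel RNA was highest in the CO group. The summed level of the 89 potassium channel genes was 2143 ± 83.7 CPM in CLCF1 libraries, 2498 ± 184 CPM in CO libraries and 2118 ± 146 CPM in NC libraries (SD, n = 6 each). The lowest CO library, at 2249 CPM, lay just above the highest NC library, at 2248 CPM, while the highest CLCF1 library, at 2271 CPM, overlapped with the CO group. Calcium channel genes summed to 1222 ± 99.7 CPM in CLCF1, 1200 ± 131 CPM in CO and 1075 ± 105 CPM in NC libraries. Sodium channel genes summed to 346.1 ± 69.0 CPM in CLCF1, 305.2 ± 57.9 CPM in CO and 319.5 ± 31.1 CPM in NC libraries, and HCN genes to 114.5 ± 12.8, 131.9 ± 12.6 and 126.6 ± 7.54 CPM in the same order. For calcium, sodium and HCN channels the groups overlapped.

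**Figure D1:**
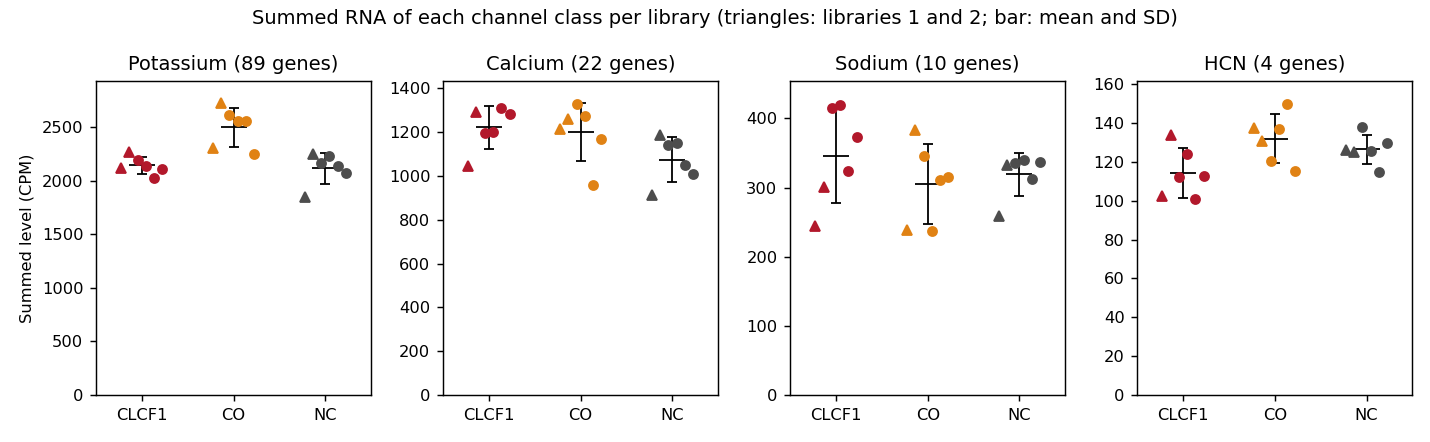
Summed level in CPM of the potassium, calcium, sodium and HCN channel genes in each of the 6 libraries of the CLCF1, CO and NC groups, with triangles for libraries 1 and 2 and bars for mean and SD. Potassium channel RNA averaged 2498 CPM in CO, against 2143 CPM in CLCF1 and 2118 CPM in NC, and the other classes overlap between groups.

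Per length of gene, the most abundant transcripts in NC brain were those of auxiliary subunits. Cacng7, which belongs to the transmembrane regulators of AMPA-type glutamate receptors, had a level of 75.3 CPM per kilobase in NC, Cacnb3, a cytosolic calcium channel beta subunit, 69.4, Kcnab2, a beta subunit of Shaker-type channels, 62.4, and Kcnmb4, the neuronal beta subunit of the large-conductance calcium-activated channel, 57.6. Among pore-forming sodium channel genes, Scn2a stood at 23.4 ± 3.77 CPM per kilobase in CLCF1, 17.9 ± 4.64 in CO and 19.2 ± 2.51 in NC, above Scn8a, the channel of nodes and initial segments, at 8.13 ± 1.49 in NC. Scn1a, the main sodium channel of fast-spiking interneurons, and Scn3a followed at 4.65 ± 1.11 and 4.2 ± 1.08 CPM per kilobase in NC and did not differ from each other beyond their spread. Cacna1a, the pore of P/Q-type channels at synapses, led the calcium channel pores at 9.62 ± 3.80 CPM per kilobase in NC, and Hcn2, a channel of the depolarizing current near rest, stood at 38.4.

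**Figure D2:**
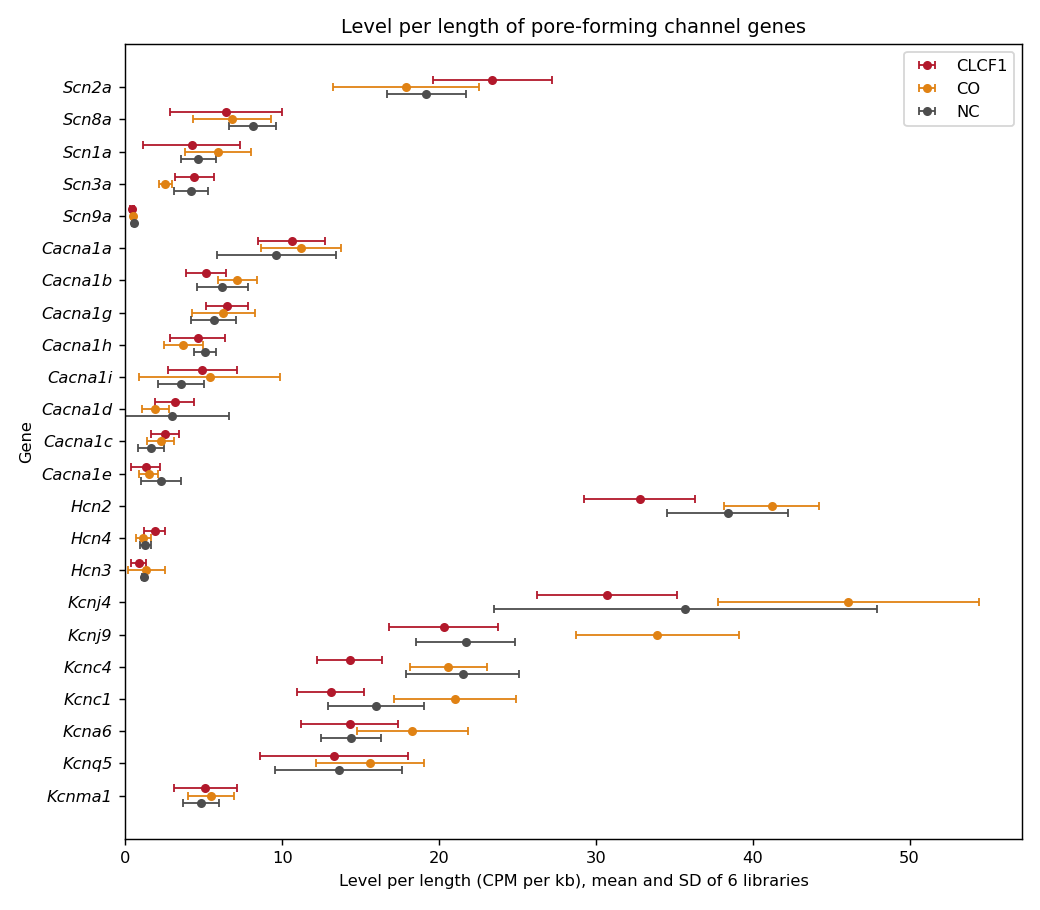
Level per length in CPM per kilobase of pore-forming sodium, calcium, HCN and selected potassium channel genes in CLCF1, CO and NC, as mean and SD of 6 libraries. Scn2a lies above the other sodium channel genes in each group, and Hcn2 above the other HCN genes.

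The first comparison, CO against NC, addresses CO inhalation in wild-type brain. Of the 109 channel genes tested, 13 rose and 1 fell in CO brain, and 95 did not pass. A call here is an adjusted p under 0.05 in edgeR's quasi-likelihood test, and over all 16581 genes 6.32% were called higher and 6.40% lower. Of the channel genes 11.9% were called higher and 0.917% lower, and their total of 12.8% was near the 12.7% of all genes. Of the 13 that rose, 11 were potassium channel genes, a class that made up 77 of the 109 tested, and the 2 others were Scn7a and Cacnb1. The log2 fold change of CO against NC was positive for 75 channel genes and negative for 34, with a median of 0.185, against 0.00661 over all genes tested. In 4 channel genes every CO library lay above every NC library, against 3.15% of all genes tested, and in 2, Scn3a and Kcnk16, every CO library lay below, against 3.20%. With libraries 1 and 2 alone, edgeR called 0 channel genes, against 0.0238% of all genes, and gave an unadjusted p under 0.05 for 5 of 110, or 4.55%, against 3.53% of all genes. All 14 calls kept their sign there and each was smaller in size, and the median over the 110 genes was 0.213. Libraries 1 and 2 are part of the fit that made the calls, so the kept signs are no independent check.

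Marker sums of several cell types also differed between CO and NC. The 10 pan-neuronal markers summed to 6330 to 6950 CPM in CO libraries and 5060 to 5670 CPM in NC libraries, and 3 of the 10 were called higher in CO. The most abundant of them, Snap25, averaged 2550 CPM in CO and 1820 CPM in NC. The rise was not uniform, as Map2 and Rbfox3 had negative log2 fold changes of -0.47 and -0.03. The 8 markers of cortical projection neurons summed to 1400 to 1750 CPM in CO and 935 to 1200 CPM in NC (2 of 8 called higher). The 8 striatal markers summed to 1540 to 2830 CPM in CO and 295 to 1750 CPM in NC (1 of 8 called higher). Ppp1r1b, the most abundant striatal marker, did not pass (edgeR adjusted p = 0.168), and Drd1 and Pde10a had negative log2 fold changes of -0.27 and -1.04. Lower sums without overlap were seen for pericyte and smooth muscle markers, at 83.1 to 181 CPM in CO and 225 to 291 CPM in NC (3 of 6 called lower), for fibroblast and meningeal markers, at 128 to 215 CPM in CO and 299 to 419 CPM in NC (4 of 5 called lower), and for ependymal markers, at 4.89 to 13.8 CPM in CO and 17.0 to 38 CPM in NC (2 of 4 called lower). Monoamine neuron markers summed to 16.4 to 63.7 CPM in CO and 27.1 to 282 CPM in NC. Of the 5 tested, 3 were called lower, and their median log2 fold change was -2.72. Thalamus and midbrain relay markers summed to 51.5 to 104 CPM in CO and 72.6 to 230 CPM in NC (1 of 5 called lower), with a median of -0.826. For both lists the lowest NC sum was that of NC library 2, and the other NC libraries lay at 134 CPM or above for monoamine markers. The part of all these cell types in the channel results was not tested.

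Two-pore potassium channels gave the largest group of calls, 5 of the 12 tested, and 11 of the 12 had a positive log2 fold change with a median of 0.447. Kcnk3 encodes an acid-sensitive background channel. Its level was 18.4, 21.7 and 29.0 CPM (lowest, median and highest library) in CO, against 9.06, 12.1 and 15.7 CPM in NC. Every CO library lay above every NC library, by a log2 fold change of 0.86 ± 0.20 (SE, edgeR adjusted p = 0.00863), or 0.52 with libraries 1 and 2 alone. Kcnk12, of the halothane-inhibited subfamily, had 9.48, 12 and 23.8 CPM in CO and 1.52, 4.67 and 7.19 CPM in NC, again with no overlap. Its log2 fold change was 1.65 ± 0.35 (edgeR adjusted p = 0.00588), or 1.18 with libraries 1 and 2 alone.

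The other calls among two-pore channels were lost when single libraries were left out. Kcnk13, whose channel carries the resting potassium current of microglia in mice, had 3.81, 5.32 and 5.74 CPM in CO and 2.19, 3.47 and 4.26 CPM in NC (log2 fold change 0.61 ± 0.19, edgeR adjusted p = 0.0423). Microglial markers summed to 212 to 300 CPM in CO and 220 to 309 CPM in NC, but single markers went both ways. C1qa was called higher in CO (0.60, edgeR adjusted p = 0.0175) and P2ry12 lower (-0.90, edgeR adjusted p = 0.022). Their part in the Kcnk13 values was not tested. Kcnk4, a channel opened by stretch and arachidonic acid, had 18.7, 22.8 and 25.6 CPM in CO and 11.3, 15.2 and 21.6 CPM in NC (log2 fold change 0.51 ± 0.15, edgeR adjusted p = 0.0330). Kcnk5, a channel activated by alkaline pH, had 1.16, 2.34 and 3.78 CPM in CO and 0.563, 0.846 and 1.79 CPM in NC (log2 fold change 1.25 ± 0.38, edgeR adjusted p = 0.0391). The groups overlapped for all 3 genes. Kcnk4 lost its call without any 1 of 6 libraries (CO 4, 5 or 6, NC 1, 3 or 6; edgeR adjusted p from 0.0514 to 0.0702), Kcnk5 without any 1 of 8 (CO 1, 3, 5 or 6, NC 3, 4, 5 or 6; adjusted p 0.0515 to 0.0893) and Kcnk13 without any 1 of 9 (CLCF1 1, CO 1, 3, 5 or 6, NC 1, 3, 4 or 6; adjusted p 0.0505 to 0.0929). Kcnk1 and Kcnk2, both known from brain, did not pass, with edgeR adjusted p of 0.404 and 0.871.

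Of 11 inward rectifier genes tested, Kcnj9 and Kcnj11 rose and the other 9 did not pass, with a median log2 fold change of 0.0404 over the 11. Kcnj9 encodes a subunit of the channel that G protein-coupled receptors open to quiet a neuron. Its level was 63.4, 86.9 and 101 CPM in CO and 43.3, 53.2 and 66.5 CPM in NC, with 1 CO library below the highest NC library. This was a log2 fold change of 0.65 ± 0.14 (edgeR adjusted p = 0.0056), or 0.49 with libraries 1 and 2 alone. Kcnj11 forms the pore of the ATP-sensitive potassium channel, which opens when cellular energy runs low. Its level was 33.4, 41.7 and 53.1 CPM in CO and 22, 29.7 and 34.1 CPM in NC (log2 fold change 0.58 ± 0.14, edgeR adjusted p = 0.0145, 0.56 with libraries 1 and 2 alone). Abcc8, the sulfonylurea receptor that surrounds this pore, averaged 17.8 CPM in CO and 13.2 CPM in NC (log2 fold change 0.44 ± 0.12, edgeR adjusted p = 0.0197).

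Glial inward rectifiers gave values of the other sign that did not pass in edgeR, while DESeq2 called both lower in CO, Kcnj10 at an adjusted p of 0.0391 and Kcnj16 at 0.0176. Kcnj10, the main potassium channel of astrocytes, had 9.47, 14.8 and 21.5 CPM in CO and 17.1, 23.9 and 29.2 CPM in NC (log2 fold change -0.64, edgeR adjusted p = 0.0688). Kcnj16, which joins Kcnj10 in the same channels and was named after its values were seen, had 0.63, 6.29 and 13.1 CPM in CO and 9.68, 14.5 and 41.9 CPM in NC (log2 fold change -1.50, edgeR adjusted p = 0.0608). The pattern was not particular to the glial rectifiers. Kcnj2, another inward rectifier also named after its values were seen, stood at -0.74 (edgeR adjusted p = 0.0723, DESeq2 adjusted p = 0.0378). The 7 astrocyte markers summed to 3920 to 7510 CPM in CO and 5300 to 7320 CPM in NC. CO library 5 gave the 7510 CPM, and the other CO libraries reached 5490 CPM at most. Each of the 7 markers had a negative log2 fold change, with a median of -0.292. Of them, only Aldh1l1 was called lower (-0.77, edgeR adjusted p = 0.017), and Aqp4 did not pass (-0.59, edgeR adjusted p = 0.0521). The part of astrocytes in the Kcnj10, Kcnj16 and Kcnj2 values was not tested.

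Both sodium-activated potassium channel genes rose in CO. Kcnt1 had 49.2, 55.5 and 64.4 CPM in CO and 30.9, 42.5 and 48.5 CPM in NC, and Kcnt2 had 24.4, 34.1 and 44.2 CPM in CO and 21.0, 21.6 and 24.1 CPM in NC. Neither pair of groups overlapped. The log2 fold change was 0.41 ± 0.13 for Kcnt1 (edgeR adjusted p = 0.0411) and 0.61 ± 0.17 for Kcnt2 (edgeR adjusted p = 0.0235), or 0.37 and 0.52 with libraries 1 and 2 alone. Kcnt1 lost its call without any 1 of 8 libraries (CO 1 to 4, NC 1, 3, 5 or 6; edgeR adjusted p from 0.0526 to 0.0859), and Kcnt2 without CO library 4 (adjusted p 0.0536).

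Among the voltage-gated potassium channels, Kcng3 and Kcnh1 passed. Kcng3 is a modifier subunit, silent alone, that changes the gating of Shab-type channels. It was rare, at 1.13, 1.38 and 2.22 CPM in CO and 0.169, 0.363 and 1.3 CPM in NC (log2 fold change 1.49 ± 0.41, edgeR adjusted p = 0.0248). That call was lost without CO library 4 or NC library 3 or 4 (edgeR adjusted p from 0.0511 to 0.0519). Kcnh1, an ether-a-go-go channel, had 31.8, 41.5 and 82.3 CPM in CO and 19.0, 26.3 and 38.8 CPM in NC (log2 fold change 0.78 ± 0.25, edgeR adjusted p = 0.0428), and the call was lost without any 1 of 8 libraries (CO 2, 5 or 6, NC 1, 3, 4, 5 or 6; adjusted p 0.0563 to 0.11). For accessory subunits of the Kcnab, Kcne, Kcnip and Kcnrg families, edgeR called 0 of 10, with 2 at an unadjusted p under 0.05, Kcne5 and Kcnrg, and 0 called by DESeq2.

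**Figure D3:**
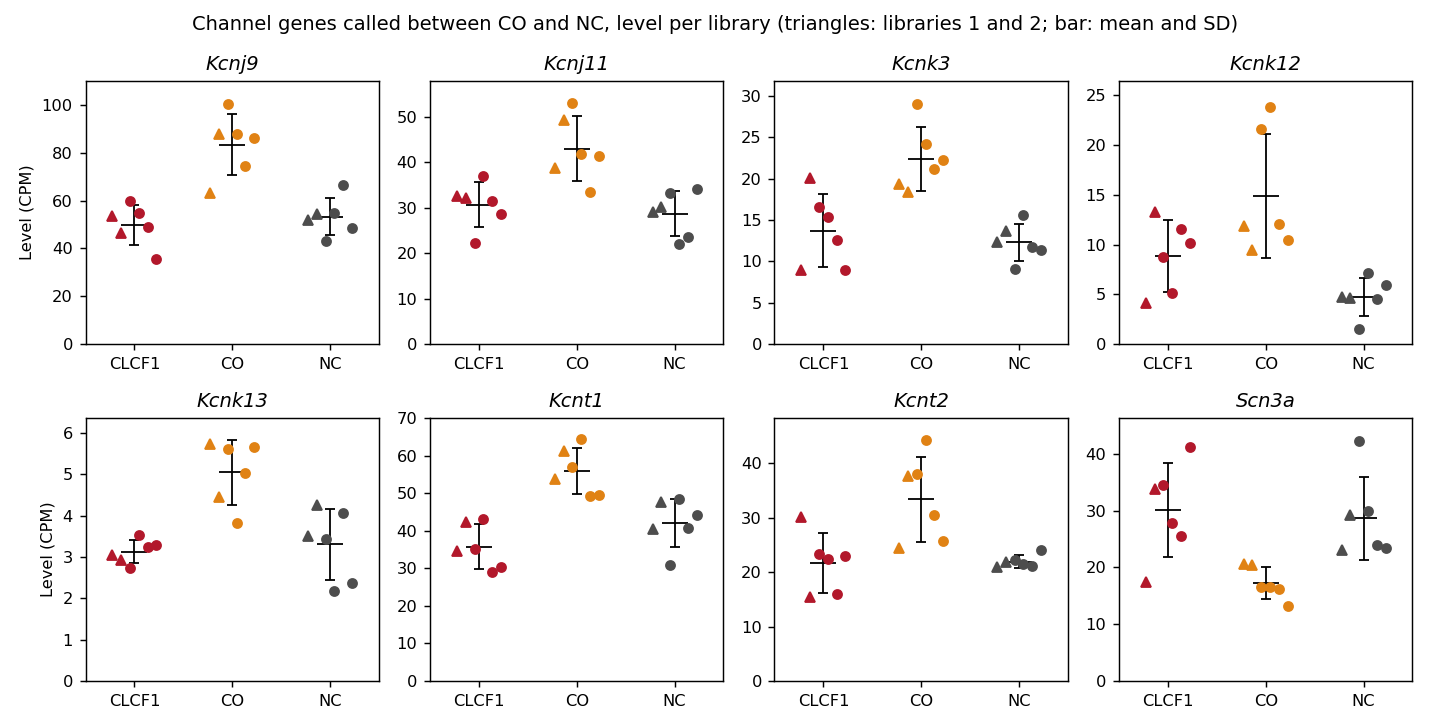
Level in CPM of 8 channel genes called between CO and NC, in each of the 6 libraries of CLCF1, CO and NC, with triangles for libraries 1 and 2 and bars for mean and SD. Kcnk3, Kcnk12, Kcnt1 and Kcnt2 lie higher in every CO library than in every NC library, and Scn3a lies lower in every CO library than in every NC library.

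Scn3a, the sodium channel alpha subunit that is most abundant in fetal and newborn brain, was the 1 channel gene that fell in CO. Its level was 13.3, 16.6 and 20.7 CPM in CO and 23.1, 26.6 and 42.3 CPM in NC, with every CO library below every NC library. This was a log2 fold change of -0.73 ± 0.19 (edgeR adjusted p = 0.0193), or -0.36 with libraries 1 and 2 alone. The table places Scn3a on chromosome 3 from 51532627 to 51643140, next to Scn2a, from 51687809 to 51822250, and Scn1a, from 52381975 to 52510507, on a build the files do not name. These neighbours did not pass, with log2 fold changes of -0.11 for Scn2a (edgeR adjusted p = 0.711) and 0.34 for Scn1a (adjusted p 0.568), and neither did Scn8a (-0.26, 0.623).

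Scn7a, which encodes a sodium sensor of glia and is in the same cluster, was called higher through 1 library. It had 0.126, 0.914 and 21.7 CPM in CO and 0, 0.0562 and 1.33 CPM in NC, and CO library 5 alone reached 21.7 CPM, whereas the other 5 lay at 1.35 CPM or below. The log2 fold change was 3.81 ± 1.13 (edgeR adjusted p = 0.0340), or 0.62 with libraries 1 and 2 alone. The call was lost without CO library 5 or any 1 of NC libraries 2 to 6, with log2 fold changes from 1.35 to 5.16 over all libraries left out in turn and edgeR adjusted p from 0.0557 to 0.306 where it was lost.

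Calcium and HCN channel genes mostly did not pass between CO and NC. Cacnb1, a beta subunit that brings pores to the membrane, was the 1 call among 21 calcium channel genes, at 96.2, 141 and 189 CPM in CO and 73.4, 94.1 and 124 CPM in NC (log2 fold change 0.53 ± 0.16, edgeR adjusted p = 0.0343). Without any 1 of 7 libraries (CO 2, 4 or 6, NC 1, 3, 5 or 6) it was lost, with edgeR adjusted p from 0.0514 to 0.0831. Of the 10 calcium channel pore genes edgeR called 0, with 1 at an unadjusted p under 0.05, Cacna1f, which DESeq2 called. Of the 4 HCN genes, edgeR called 0, with 0 at an unadjusted p under 0.05 and 0 called by DESeq2.

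The second comparison, CLCF1 against CO, addresses the knock-down among rats that all inhaled CO. Of the 109 channel genes tested, 7 rose and 20 fell in CLCF1 brain, and 82 did not pass. Over all genes tested, 8.63% were called higher, 8.34% lower and 17.0% in either direction, against 6.42%, 18.3% and 24.8% of channel genes. Potassium channel genes, 77 of the 109 tested, made up 18 of the 20 that fell, the others being Hcn2 and Cacnb2. The log2 fold change of CLCF1 against CO was negative for 72 channel genes and positive for 37, with a median of -0.152, against 0.00183 over all genes. In 8 channel genes every CLCF1 library lay below every CO library, against 3.65% of all genes, and in 0 above, against 3.46%. With libraries 1 and 2 alone, edgeR called 0 of 110 channel genes, against 0.0476% of all genes, with 9 at an unadjusted p under 0.05, or 8.18%, against 4.86% of all genes, and the median was -0.218. All 26 calls that could be computed there kept their sign, which is again no independent check, and 24 were smaller in size.

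This comparison and CO against NC share the 6 CO libraries, so their values are not independent of each other. Pan-neuronal markers summed to 5670 to 6790 CPM in CLCF1 and 6330 to 6950 CPM in CO, with 1 of 10 called higher and 3 lower in CLCF1. Striatal markers summed to 417 to 1730 CPM in CLCF1 and 1540 to 2830 CPM in CO, with 1 of 8 called lower in CLCF1. Choroid plexus markers, led by Ttr, summed to 10.1 to 5880 CPM in CLCF1 and 0.567 to 33.9 CPM in CO, with all 4 that were tested called higher in CLCF1. Fibroblast and meningeal markers summed to 235 to 341 CPM in CLCF1 and 128 to 215 CPM in CO, with 2 of 5 called higher in CLCF1. Their part in the channel results was not tested.

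Of the 4 Shaw-related genes, whose channels let neurons fire at high frequency, 3 fell in CLCF1 and all 4 had negative values, with a median of -0.572. Kcnc1 had 44.1, 49.7 and 68.5 CPM in CLCF1 and 59.7, 87.9 and 98.6 CPM in CO, with 1 CLCF1 library inside the range of the CO group. Its log2 fold change was -0.69 ± 0.15 (edgeR adjusted p = 0.00484), or -0.66 with libraries 1 and 2 alone. Kcnc4 had 34.3, 39.1 and 50.1 CPM in CLCF1 and 53.0, 55.6 and 71.4 CPM in CO, with no overlap (log2 fold change -0.52 ± 0.12, edgeR adjusted p = 0.00802, -0.48 with libraries 1 and 2 alone). Kcnc2 had 42.1, 52.7 and 65.8 CPM in CLCF1 and 57.0, 70.7 and 87.8 CPM in CO (edgeR log2 fold change -0.43 ± 0.13, adjusted p = 0.0252). The groups overlapped for Kcnc2, and its call was lost without CLCF1 library 2 or 3 or CO library 3 (edgeR adjusted p from 0.0572 to 0.058).

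The modifier subunits of the Kcnf, Kcng, Kcns and Kcnv families had negative values in 9 of 10 genes, with a median of -0.739, and 3 passed. Kcng2 had 4.28, 6.02 and 8.16 CPM in CLCF1 and 7.94, 11.9 and 16.1 CPM in CO (edgeR log2 fold change -0.93 ± 0.20, adjusted p = 0.00487, -0.54 with libraries 1 and 2 alone). Kcng4 had 3.39, 9.86 and 13.3 CPM in CLCF1 and 11.2, 18.8 and 29.0 CPM in CO (edgeR log2 fold change -1.01 ± 0.28, adjusted p = 0.0208, -0.94 with libraries 1 and 2 alone). Both pairs of groups overlapped at their edges. The third was Kcng1, at -0.84 (edgeR adjusted p = 0.0258), which was lost without CLCF1 library 4 or 6 or CO library 6 (adjusted p 0.0526 to 0.0561).

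Kcnh4, an ether-a-go-go-like channel of the forebrain, had 0.861, 2.51 and 4.77 CPM in CLCF1 and 3.37, 8.78 and 13.3 CPM in CO (edgeR log2 fold change -1.63 ± 0.39, adjusted p = 0.00905, -1.42 with libraries 1 and 2 alone). Kcna7, a Shaker-related gene known from muscle, lay near the limit of detection at 0.0538, 0.141 and 0.243 CPM in CLCF1 and 0.239, 0.728 and 1.22 CPM in CO (edgeR log2 fold change -2.25 ± 0.64, adjusted p = 0.0210). The groups overlapped slightly for both genes.

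Kcnj9, the G protein-gated subunit, had 35.4, 51.2 and 60.0 CPM in CLCF1, against the 63.4, 86.9 and 101 CPM in CO, with no overlap. The log2 fold change was -0.74 ± 0.14 (edgeR adjusted p = 0.00183), or -0.61 with libraries 1 and 2 alone. Kcnt1 had 29.0, 34.9 and 43.2 CPM in CLCF1, below all CO libraries (-0.64 ± 0.13, edgeR adjusted p = 0.00287, -0.59 with libraries 1 and 2 alone). Kcnk13 had 2.75, 3.14 and 3.53 CPM in CLCF1, also below all CO libraries (-0.69 ± 0.19, edgeR adjusted p = 0.0190, -0.78 with libraries 1 and 2 alone). Microglial markers summed to 272 to 352 CPM in CLCF1 and 212 to 300 CPM in CO, with 0 of 6 called. The part of microglia in the Kcnk13 values was not tested. Kcnt2 had 15.4, 22.7 and 30.2 CPM in CLCF1 (-0.62 ± 0.17, edgeR adjusted p = 0.0159) and Kcnk3 8.93, 14 and 20.0 CPM (-0.70 ± 0.19, edgeR adjusted p = 0.0185), and both overlapped with CO.

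Kcnj11 and Kcnk4 also fell. Kcnj11 had 22.2, 31.8 and 37.0 CPM in CLCF1 (log2 fold change -0.49 ± 0.14, edgeR adjusted p = 0.0265), and the call was lost without CLCF1 library 3 or 6 or CO library 2 or 3 (adjusted p 0.0507 to 0.0602). Kcnk4 had 13.1, 16.5 and 19.5 CPM in CLCF1 (-0.47 ± 0.15, edgeR adjusted p = 0.0404), lost without any 1 of 8 libraries (CLCF1 2, 3, 5 or 6, CO 2, 4, 5 or 6; adjusted p 0.0513 to 0.0847). Kcnj4, a strong rectifier of forebrain neurons, had 62.3, 81.4 and 95.7 CPM in CLCF1 and 105, 115 and 164 CPM in CO, with no overlap (-0.59 ± 0.20, edgeR adjusted p = 0.0468), lost without any 1 of 10 libraries (CLCF1 3 to 6, CO 1 or 3 to 6, NC 2; adjusted p 0.0503 to 0.0968). Kcnd1, an A-type channel, was called at -0.55 (edgeR adjusted p = 0.0345) and lost without any 1 of 5 libraries (CLCF1 2, 3 or 4, CO 4 or 5; adjusted p 0.057 to 0.0755).

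**Figure D4:**
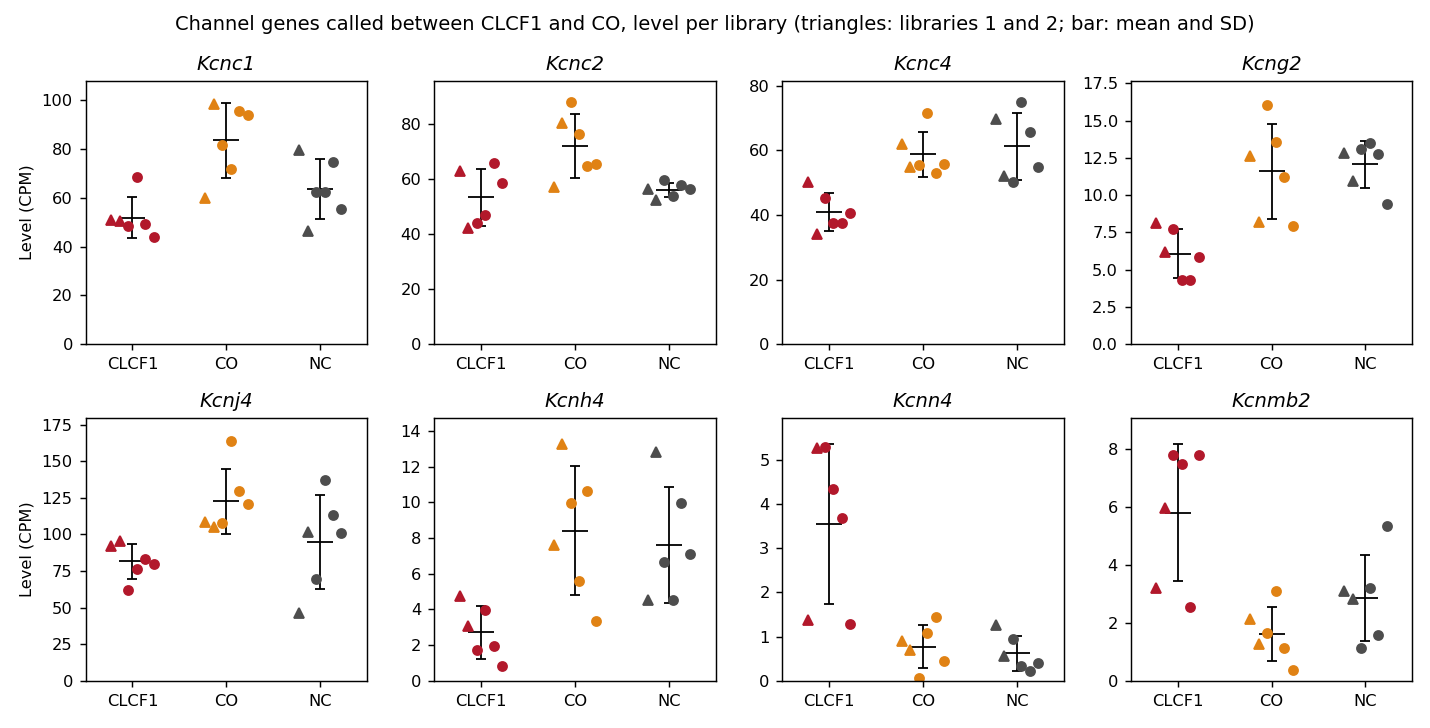
Level in CPM of 8 channel genes called between CLCF1 and CO, in each of the 6 libraries of CLCF1, CO and NC, with triangles for libraries 1 and 2 and bars for mean and SD. Kcnc4 lies lower in every CLCF1 library than in every CO or NC library, Kcnj4 lies lower in every CLCF1 library than in every CO library, and Kcnn4 and Kcnmb2 average 3.54 and 5.81 CPM in CLCF1 against 0.774 and 1.62 CPM in CO.

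Potassium channel genes that rose in CLCF1 were Kcnn4, Kcnmb2, Kcnh6 and Kcnj10. Kcnn4, the intermediate-conductance calcium-activated channel of blood cells, microglia and epithelia, had 1.37, 5.26, 5.28, 4.34, 3.68 and 1.29 CPM in CLCF1 libraries 1 to 6, against 0.063, 0.803 and 1.45 CPM (lowest, median, highest) in CO. Its log2 fold change was 2.18 ± 0.53 (edgeR adjusted p = 0.00915), or 2.01 with libraries 1 and 2 alone. Choroid plexus markers summed to 5880, 10.1, 3630, 3800, 754 and 2540 CPM in the same 6 libraries, and their part in the Kcnn4 values was not tested. Kcnmb2, a beta subunit that makes the large-conductance calcium-activated channel inactivate, had 2.55, 6.74 and 7.81 CPM in CLCF1 and 0.381, 1.46 and 3.11 CPM in CO (1.84 ± 0.44, edgeR adjusted p = 0.00816, 1.40 with libraries 1 and 2 alone). The pore of that channel, Kcnma1, did not pass (-0.10, edgeR adjusted p = 0.822).

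Kcnh6, of the erg subfamily, had 2.77, 7.05 and 16.7 CPM in CLCF1 and 1.07, 2.66 and 4.31 CPM in CO (edgeR log2 fold change 1.62 ± 0.46, adjusted p = 0.0224), and the call was lost without CLCF1 library 5 (adjusted p 0.0672). Kcnj10 had 12.6, 27.1 and 35.2 CPM in CLCF1 and 9.47, 14.8 and 21.5 CPM in CO (0.77 ± 0.23, edgeR adjusted p = 0.0265). With libraries 1 and 2 alone its value was 0.05, and the call was lost without CLCF1 library 4 or 6 or CO library 4 or 6 (adjusted p 0.0545 to 0.0666). Astrocyte markers summed to 4820 to 6760 CPM in CLCF1 and 3920 to 7510 CPM in CO, and their part in the Kcnj10 value was not tested.

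Scn3a rose in CLCF1, with 17.5, 30.8 and 41.2 CPM against 13.3, 16.6 and 20.7 CPM in CO and 1 CLCF1 library inside the CO range. This was a log2 fold change of 0.80 ± 0.19 (edgeR adjusted p = 0.00905), or 0.30 with libraries 1 and 2 alone. Scn2a, at 0.39 (edgeR adjusted p = 0.108), Scn1a, at -0.48 (adjusted p 0.394), and Scn8a, at -0.09 (adjusted p 0.879), did not pass. Hcn2, the most abundant HCN gene, fell, with 68.8, 84.5 and 92.0 CPM in CLCF1 below all CO libraries at 94.0, 104 and 114 CPM. That change was small, -0.33 ± 0.09 (edgeR adjusted p = 0.0219), and was lost without CLCF1 library 5 (adjusted p 0.0507).

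Calcium channel calls concerned auxiliary subunits. Cacng5, a regulator of AMPA-type glutamate receptors, had 9.10, 17.7 and 47.6 CPM in CLCF1 and 3.75, 8.97 and 12.4 CPM in CO (edgeR log2 fold change 1.48 ± 0.41, adjusted p = 0.0185), lost without CLCF1 library 5 (adjusted p 0.0535). Cacng6 had 0.705, 1.67 and 2.17 CPM in CLCF1 and 0.191, 0.555 and 1.76 CPM in CO (1.25 ± 0.41, edgeR adjusted p = 0.0434), and the call was lost when any library other than CLCF1 4 or CO 3 was left out (adjusted p 0.0508 to 0.0899). Cacnb2, a beta subunit, was called lower at -0.59 (edgeR adjusted p = 0.0252) and lost without CLCF1 library 5 (adjusted p 0.0558). Of the 10 pore genes edgeR called 0, with Cacna1b and Cacna1f at an unadjusted p under 0.05, and DESeq2 called Cacna1b alone. In edgeR, Cacna1b, the N-type pore of presynaptic terminals, stood at -0.47 (adjusted p = 0.0742).

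**Figure D5:**
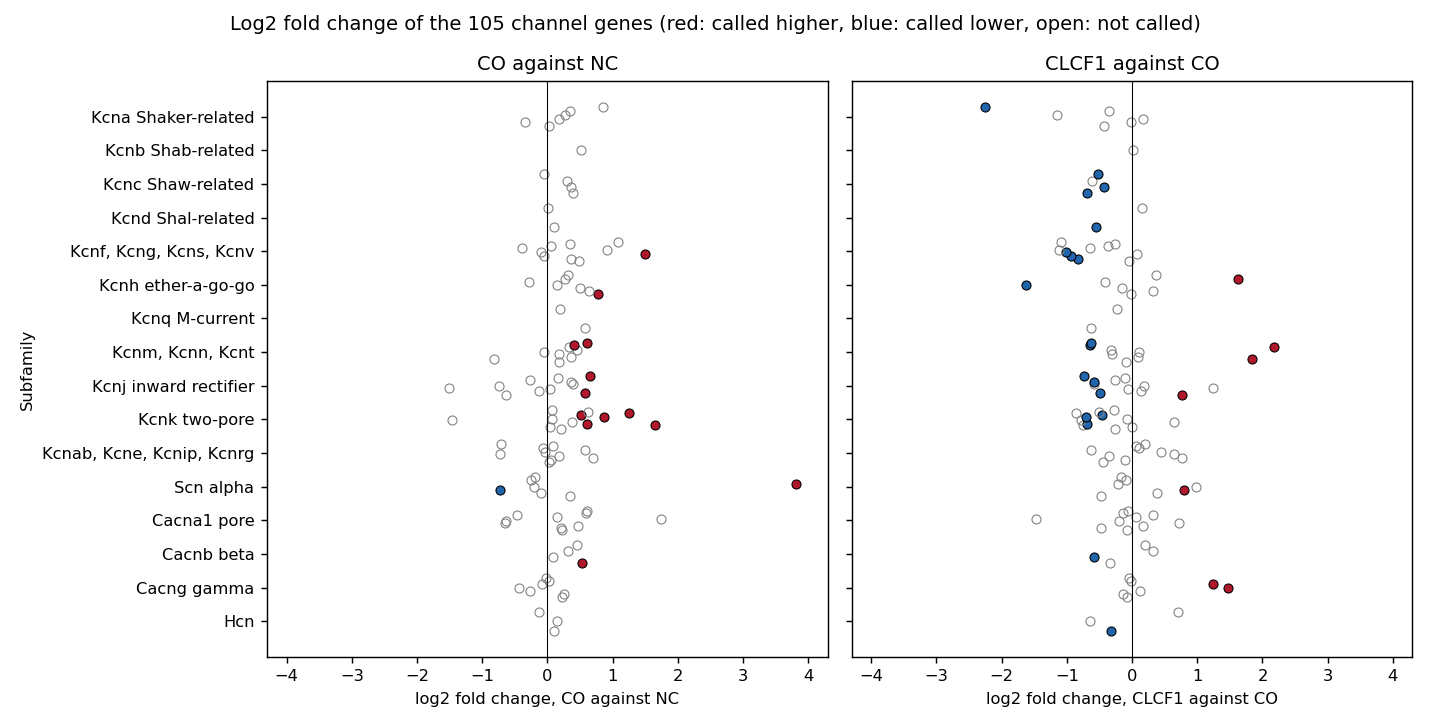
Log2 fold change of 105 channel genes by subfamily, for CO against NC and for CLCF1 against CO, with filled points for called genes. Positive calls prevail in CO against NC, 13 against 1, and negative calls in CLCF1 against CO, 19 against 7; both panels share the 6 CO libraries.

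CLCF1 against NC sets the exposed knock-down group against untreated brain. In CLCF1, 5 channel genes rose, 6 fell and 98 did not pass. That is 10.1% called, against 9.26% of all genes tested, of which 4.43% were higher and 4.84% lower. The median log2 fold change was -0.00664 over channel genes and 0.0106 over all genes. In 2 channel genes every CLCF1 library lay above every NC library, against 2.73% of all genes, and in 4, Cacnb2 among them, below, against 2.90%. With libraries 1 and 2 alone, edgeR called 0 of 110, against 0.0119% of all genes, with 3 at an unadjusted p under 0.05, or 2.73%, against 2.49% of all genes. All 11 calls kept their sign there, again no independent check.

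Kcnc4 had 34.3, 39.1 and 50.1 CPM in CLCF1 and 50.2, 60.2 and 74.8 CPM in NC (log2 fold change -0.58 ± 0.12, edgeR adjusted p = 0.00725). Kcng2 had 4.28, 6.02 and 8.16 CPM in CLCF1 and 9.39, 12.8 and 13.5 CPM in NC (-0.99 ± 0.20, edgeR adjusted p = 0.00575). In both genes every CLCF1 library lay below every NC library. Kcng4 (-1.10, edgeR adjusted p = 0.0207) and Kcnh4 (-1.48, edgeR adjusted p = 0.0235) fell with overlap, Kcnh4 losing its call without NC library 2 (adjusted p 0.0519). Kcnk16, an alkaline-activated two-pore channel best known from the pancreas, was rare at 0, 0.162 and 1.01 CPM in CLCF1 and 0.956, 1.19 and 1.96 CPM in NC (-2.25 ± 0.56, edgeR adjusted p = 0.0170). Its groups overlapped in 1 library.

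Among the genes that rose against NC, Cacnb3 was the most abundant. It had 226, 260 and 364 CPM in CLCF1 and 153, 166 and 213 CPM in NC, with no overlap (log2 fold change 0.64 ± 0.15, edgeR adjusted p = 0.0134, 0.32 with libraries 1 and 2 alone). Kcnn4 had 1.29, 4.01 and 5.28 CPM in CLCF1 and 0.226, 0.475 and 1.26 CPM in NC, with no overlap (2.51 ± 0.54, edgeR adjusted p = 0.00768). Kcnh6 rose by 1.89 (edgeR adjusted p = 0.0170), as did Kcng3 by 1.57 (edgeR adjusted p = 0.0227, lost without CLCF1 library 4 at 0.0537). Kcnh2, which encodes the erg channel that also repolarizes heart muscle, had 19.8, 39.4 and 55.9 CPM in CLCF1 and 11.8, 15.4 and 34.5 CPM in NC (0.97 ± 0.29, edgeR adjusted p = 0.0406). With libraries 1 and 2 alone its value was 0.19, and it was lost without any 1 of 9 libraries (CLCF1 2, 4, 5 or 6, CO 6, NC 3 to 6; adjusted p 0.051 to 0.0946). Choroid plexus markers summed to 10.1 to 5880 CPM in CLCF1 and 1.74 to 104 CPM in NC, with all 4 tested called higher. Other marker sums differed too. Pericyte and smooth muscle markers summed to 115 to 191 CPM in CLCF1 and 225 to 291 CPM in NC (2 of 6 called lower). Monoamine markers summed to 23.6 to 62.9 CPM in CLCF1 and 27.1 to 282 CPM in NC (3 of 5 tested called lower). Pan-neuronal markers summed to 5670 to 6790 CPM in CLCF1 and 5060 to 5670 CPM in NC (1 of 10 called higher). The part of these cell types was not tested.

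Most members best known for the excitability of brain neurons did not pass. Of those reported here, 15 passed in no comparison, among them Scn1a, Scn2a, Scn8a, Cacna1a, Cacna1c, Kcna1, Kcna2, Kcnq3, Kcnma1 and Kcnn2. At an unadjusted p under 0.05 in edgeR, 0 of the 15 stood out in CO against NC, Cacna1b and Scn2a in CLCF1 against CO, and 0 in CLCF1 against NC. DESeq2 called 0 of the 15 in CO against NC, Cacna1b in CLCF1 against CO and 0 in CLCF1 against NC. Kcnd2 was not analysed here.

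Of 30 partner genes of these channels (beta subunits, anchoring proteins, calmodulins), 27 could be tested. In CO against NC 3 of the 27 rose, namely Fgf12, which binds sodium channel tails, Abcc8 and Calm3, and 0 fell. Over all genes tested 6.32% were called higher and 6.40% lower, and the median over the list was 0.0685. In CLCF1 against CO 0 of the 27 rose and 3 fell, Scn3b and Sptbn4 among them, with a median of -0.237. Over all genes tested 8.63% were called higher and 8.34% lower there. Sptbn4, the spectrin that anchors channels at initial segments and nodes, averaged 111 CPM in CLCF1 and 201 CPM in CO (-0.85 ± 0.23 on the log2 scale, edgeR adjusted p = 0.0150), and Scn3b, a sodium channel beta subunit, 150 CPM in CLCF1 and 188 CPM in CO (-0.32 ± 0.08, edgeR adjusted p = 0.00927). In CLCF1 against NC, Fgf12 rose and Scn3b, Sptbn4 and Cacna2d2 fell, with a median of -0.0983. Over all genes tested 4.43% were called higher and 4.84% lower in that comparison.

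The 16 members with too few counts for a test included 3 with no count in any library, Kcna10, Kcne1 and Kcnj1. Several others, named here after their values were seen, were detected mainly in some of the groups. How often untested genes in general show this was not counted. Kcnmb3 had 0, 60, 30, 37, 35 and 12 counts in CLCF1 libraries 1 to 6 and 0 in every CO and NC library, and Kcnk6 had 0, 18, 24, 12, 12 and 3 counts in CLCF1, against 3 counts over all CO libraries and 0 in NC. Kcnh8 had 0, 40, 62, 11, 15 and 12 counts in CLCF1, 0 in every CO library and 16 over all NC libraries. In CLCF1 library 1 all 3 genes were at 0. Kcnmb1, the beta subunit of smooth muscle, had 14 counts over the CLCF1, 19 over the CO and 107 over the NC libraries. Cacng1, known from skeletal muscle, had 50 in CLCF1, 54 in CO and 4 in NC. Kcnq1, a channel of heart and epithelia, had 19, 2, 5, 54, 5 and 21 counts in CLCF1, 0 in every CO library and 66 over the NC libraries. The other 7 members had between 15 and 157 counts over all 18 libraries.

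Promoters of genes called in both CO against NC and CLCF1 against CO are shown to let the sequence be read beside the values, for Kcnj9, Kcnk13, Kcnk4, Kcnt2 and Scn3a; those of Kcnj11, Kcnk3 and Kcnt1, also called in both, are not shown. Each is the stretch of 250 bases before the gene start in the rat build GRCr8, from RefSeq, in the direction of the gene. Capitals mark matches, on either strand, to 5 motifs: GC box GGGCGG, hypoxia response element core ACGTG, CRE half-site TGACG, AP-1 TGANTCA and E-box CACGTG, which contains the ACGTG core. Kcnj9 (chr13:87320294-87320543, minus strand) holds none of them.
Kcnj9: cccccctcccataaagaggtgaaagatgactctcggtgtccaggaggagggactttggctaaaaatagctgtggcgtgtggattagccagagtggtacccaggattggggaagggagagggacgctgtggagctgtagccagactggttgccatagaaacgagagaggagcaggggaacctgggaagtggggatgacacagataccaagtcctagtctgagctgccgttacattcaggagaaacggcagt
Kcnk13 (chr6:124971559-124971808, plus strand) holds 1 ACGTG core.
Kcnk13: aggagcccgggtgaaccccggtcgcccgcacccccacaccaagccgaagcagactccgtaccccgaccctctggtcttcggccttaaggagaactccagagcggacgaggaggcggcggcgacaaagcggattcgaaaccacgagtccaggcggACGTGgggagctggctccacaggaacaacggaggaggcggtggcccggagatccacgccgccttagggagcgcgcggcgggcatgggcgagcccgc
Kcnk4 (chr1:213555862-213556111, minus strand) holds 1 GC box.
Kcnk4: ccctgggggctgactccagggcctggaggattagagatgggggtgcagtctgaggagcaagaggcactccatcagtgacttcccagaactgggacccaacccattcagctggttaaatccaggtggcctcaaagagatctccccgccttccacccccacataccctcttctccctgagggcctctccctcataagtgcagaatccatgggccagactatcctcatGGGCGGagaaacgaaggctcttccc
Kcnt2 (chr13:54215057-54215306, plus strand) holds 1 GC box.
Kcnt2: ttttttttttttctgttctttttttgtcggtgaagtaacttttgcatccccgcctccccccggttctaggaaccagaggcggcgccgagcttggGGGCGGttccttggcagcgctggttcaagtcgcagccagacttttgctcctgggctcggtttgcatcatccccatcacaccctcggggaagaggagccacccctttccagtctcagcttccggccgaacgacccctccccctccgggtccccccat
Scn3a (chr3:70666199-70666448, minus strand), which moved the opposite way, holds 1 AP-1 match.
Scn3a: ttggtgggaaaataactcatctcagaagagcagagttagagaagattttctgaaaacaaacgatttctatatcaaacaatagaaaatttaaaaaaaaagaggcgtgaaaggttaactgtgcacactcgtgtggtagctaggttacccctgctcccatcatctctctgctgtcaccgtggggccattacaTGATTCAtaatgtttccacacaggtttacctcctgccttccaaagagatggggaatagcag

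RefSeq entries were found for 82 of the 125 genes, with 89 starts. The GC box was in 47.2% of these promoters, against 30.5% of all 33469, and their median GC content was 59.6%, against 51.2%. The ACGTG core was in 6.74%, against 16.6% of all, TGACG in 18%, against 18.2%, TGANTCA in 3.37%, against 6.34%, and CACGTG in 2.25%, against 5.59%. These are counts of letters in the window and say nothing of binding.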

How the data were processed

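RNA-seq was analysed in 18 rat brain libraries, 6 per group, with groups and library numbers from the sample titles. Whole-number gene counts, not normalized, were deposited by the authors in 1 table. Aligner and counter: not given in the sources used here. Per the submitters' processing notes the builds were GRCm38 and mm10, of mouse, although gene IDs are of rat, so table coordinates carry no build. No source states strandedness, so an overlapping or antisense gene may share reads with a channel gene.

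The test was that of edgeR 4.0.16 (R 4.3.3): TMM scaling, filterByExpr defaults (18292 of 34873 genes removed), 1 robust quasi-likelihood fit of all 18 libraries, and Benjamini-Hochberg adjustment over 16581 genes at 0.05. CPM are counts scaled to 1000000 of TMM-scaled library size, and levels per kilobase use the gene length of the table. SEs were back-calculated from F. Depth was 15.1 to 20.3 M counts per library. Kcnk6 has 2 rows, of which the one with the higher mean was used. Kcnk16 and other genes at a few counts per library have wide counting error.

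The members, the lists and the tests were chosen with earlier results of these data known. Named genes are the called members (up to 12 per direction and comparison, by p), the highest member per length of each subfamily, and 24 genes known for excitability, of which Kcnd2 was not analysed here. Kcnd1, Cacnb2, Kcng1, Kcnc2 and Kcnh1, called but outside that limit, and the genes with too few counts were named after their values were seen. Some members and a partner gene are counted but not reported here. Alternatives tried: a block on library number, DESeq2 1.42.0 and its size factors, library size alone, no filter, a stricter filter (mean CPM of 1, and 10 counts in 6 libraries), a fit of 2 groups, a fold change limit of 1 on the log2 scale, libraries 1 and 2 or 3 to 6 alone, and each library left out.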

Additional observations from a re-analysis of the deposited data

Results flagged for a closer look

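In 58 named channel genes, 174 groups of 6 libraries were checked for a library far from the other 5, and 14 were found, 12 high and 2 low. Chance flags about 1 in 20 groups. Of the 14, 2 were in libraries 1 or 2 and 12 in libraries 3 to 6.

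Scn7a reached 21.7 CPM in CO library 5, against 0.126 to 1.35 CPM in the other CO libraries, and 1.33 CPM in NC library 1, against 0 to 0.37 CPM in the other NC libraries. CO library 3 was far from the others in 3 calcium channel genes, with Cacna1a at 144 CPM (others 83.6 to 104), Cacna1h low at 10.1 CPM (others 28.3 to 36.3) and Cacng6 at 1.76 CPM (others 0.191 to 0.58). NC library 3 was high in Cacna1a, at 153 CPM (others 61.8 to 82.4), and in Scn3a, at 42.3 CPM (others 23.1 to 30.0).

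CLCF1 library 4 was high in Kcnc1, at 68.5 CPM (others 44.1 to 50.8), and in Kcnq5, at 146 CPM (others 66.6 to 91.1). CLCF1 library 5 was high in Cacnb3, at 364 CPM (others 226 to 277), and CLCF1 library 1 in Kcnk16, at 1.01 CPM (others 0 to 0.326). CO library 4 was high in Kcng3, at 2.22 CPM (others 1.13 to 1.51). NC library 6 was high in Kcnt2, at 24.1 CPM (others 21.0 to 22.2), and low in Kcnn2, at 10.9 CPM (others 14.6 to 16.9).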

How the results depend on the processing

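No named gene changed direction under any alternative where it was called. DESeq2, its size factors and the fit with no filter kept all 52 calls in edgeR's 3 comparisons, library size alone kept 45, and libraries 3 to 6 alone kept 26. With libraries 1 and 2 alone 0 channel genes were called in each comparison and direction, and 51 calls were lost.

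In CO against NC, 13 higher calls became 8 with library size alone, 8 with only the 2 groups, 6 with libraries 3 to 6 alone and 4 with a fold change limit of 1 on the log2 scale. The 1 lower call became 5 with no filter, 5 with DESeq2, 2 with the 2 groups, 2 with libraries 3 to 6 and 0 at the fold change limit. In CLCF1 against CO, 7 higher calls became 12 with no filter, and 20 lower calls became 11 with libraries 3 to 6 and 4 at the fold change limit. In CLCF1 against NC, 5 higher calls became 14 with no filter, 10 with DESeq2 and 3 at the fold change limit, and 6 lower calls became 11 with no filter. The cause was not tested.

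Leaving out 1 library gave 5 to 14 higher and 1 to 4 lower calls in CO against NC, with 5 without NC library 3, 6 without NC library 6, and 8 without NC library 4 or CO library 4, and a median of 0.134 to 0.207. It gave 5 to 10 higher and 16 to 22 lower calls in CLCF1 against CO, with a median of -0.229 to -0.0851. In CLCF1 against NC it gave 3 to 11 higher and 5 to 7 lower calls, with 11 without CLCF1 library 1, 9 without CO library 3 or 5 or NC library 1, and 3 without CLCF1 library 4, and a median of -0.0425 to 0.0347.

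Library numbers are shared between groups, and same-numbered libraries deviated together weakly at most (18 pairs, r from -0.0216 to 0.179, 1 above 0.1). The pairs numbered 1 or 2 were all positive, with r from 0.0222 to 0.179, and those numbered 3 to 6 ran from -0.0216 to 0.0256. Among the libraries of the other groups, 7 of 18 libraries correlated best with one of their own number. Whether this is more than by chance was not tested. With the number as a replicate block, CO against NC had 10 higher and 1 lower calls, CLCF1 against CO 6 and 19, and CLCF1 against NC 9 and 6. Depth limits genes near 1 CPM, such as Kcna7, Kcnk16 and Cacng6, whose values rest on few reads.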
